A study of Capra hircus with 24 samples.

Results

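The array probes for 7 marker genes of T lymphocytes were followed over 3 RNA sources of dairy goats. The genes, with the cattle transcripts that the array lists for them, are CD2 (NM_001013402), CD3E (NM_174009), CD4 (NM_001103225), CD5 (NM_173899), CD8A (NM_174015), CD28 (NM_181004) and CTLA4 (NM_174297). The members were all non-control probes listed with such an accession. This rule found 14 of the 43653 probes on the array, for 7 of its 26748 accessions, and each of the 7 had at least 1 probe. Of these 14 probes, 9 probes of 6 genes were bright enough to be tested, against 27411 of all probes; the only probe of CD28 was not. The member symbols come from the rule that chose them, and all 7 occur in the RefSeq gene table of the goat (ARS1.2). None of the array's cattle accessions could be matched to that table, so other genes of the T cell pathway and markers of other cell types are not named here.

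T lymphocytes recognise antigen through a receptor whose signal passes into the cell through the CD3 chains, of which CD3E encodes one. The coreceptors CD4 and CD8 bind class II and class I MHC molecules and mark helper and cytotoxic cells. CD2 is an adhesion receptor, CD5 dampens receptor signalling, CD28 gives costimulation and CTLA4 is its inhibitory counterpart.

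The series holds 24 two-colour Agilent arrays from 8 healthy female goats in lactation 3, of which 4 were Polish White Improved (PWI) and the other 4 were Polish Fawn Improved (PFI). Every goat gave RNA of 3 kinds: MSC are milk somatic cells, which leave the udder with the milk; PNCB are nucleated cells of peripheral blood; MFG are milk fat globules, the fat droplets of milk, in which cytoplasm of the mammary epithelium can be trapped. With 3 sources and both breeds there were 6 groups, each of 4 arrays. On all arrays the goat's own RNA was labelled with Cy5 and a common reference with Cy3, without a dye swap. The reference was pooled blood nuclear cell RNA from 7 goats in lactation 4, of which 4 were PWI and 3 PFI. Ratios were normalised by loess within each array. A log2 ratio of 0 therefore means that a probe lay on its array's trend of Cy5 against Cy3. It does not mean that both channels gave equal signal. Per the labels' protocols, milk and blood RNA were extracted with different kits, and per the scan dates in the headers the MFG arrays had a scan day of their own. Kit cannot be told apart from blood, nor scan day from MFG. Each group of 4 arrays lay on its own slide, so sources were also compared between slides. The p-values of the main fit take no slide effect into account. The array was designed for cattle transcripts, and how well each probe binds the goat transcript was not tested.

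The T cell probes gave signal more often in blood than in the milk sources. A spot counted as present when the scanner software called its Cy5 signal well above background. This held for 88 of 112 member spots in PNCB (78.6%), 37 of 112 in MSC (33.0%) and 40 of 112 in MFG (35.7%). Over all probes the shares of spots were 62.9%, 56.3% and 55.5%. On all 8 arrays of a source it held for 7 of the 14 probes in PNCB, 4 in MSC and 2 in MFG, against 55.1%, 47.3% and 37.8% of all probes, so that the count in blood was near the background. On no array of a source it held for 1 probe in PNCB, 7 in MSC and 2 in MFG, against 28%, 32.9% and 9.48% of all probes.

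The MFG arrays of PWI goats 2 and 4 stood apart from the rest. On them 84.6% and 75.3% of all probes were above background in Cy5, and 11 member probes on each, against 2 to 4 member probes on the other 6 MFG arrays. Without these arrays 9 of the 14 probes were above background on no MFG array. The share of all probes on the same arrays was not taken, so this count is not read as a result. Their Cy3 signal was raised as well, with 88% and 71.5% of all probes above background, and their part in the MFG values was not tested beyond leaving them out. Of the 336 member values, 17 were flagged as outliers and omitted, so n falls below 8 for some probes. No member spot was saturated.

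**Figure D1:**
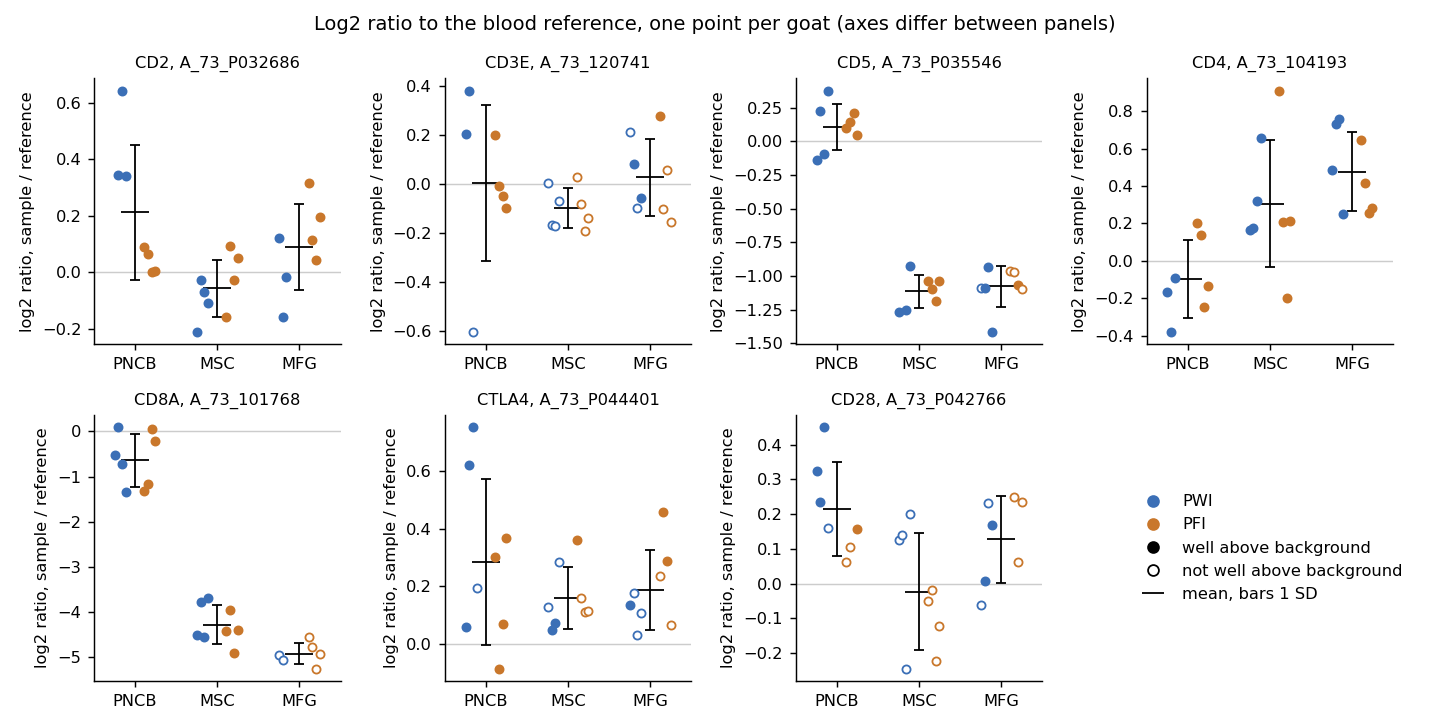
Log2 ratio of sample to blood reference for the 7 genes, with 1 point per goat in PNCB, MSC and MFG. Each gene is shown by its brightest tested probe, and CD28 by its only probe, which was not tested. Filled points were well above background in Cy5, open points were not, and bars show the mean and 1 SD. CD8A and CD5 lie lower in both milk sources with no overlap with blood, while the ranges of CD2, CD3E, CTLA4 and CD28 overlap between blood and each milk source.

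In milk somatic cells, 6 of the 9 tested probes differed from blood, 5 lower and 1 higher, and they belong to 4 genes (limma, Benjamini-Hochberg adjusted p under 0.05). Of all 27381 probes in this fit 49.6% passed the same threshold, 27.1% lower and 22.5% higher. The ranges of the 8 MSC and 8 PNCB arrays were apart for 3 of the 9 probes, against 21.5% of all probes. The median log2 difference of the 9 probes was -0.30, and that of all probes was -0.04. When arrays were centred on their median in place of loess, the member calls were 6 lower and 0 higher. The share of all probes under that setting is not given here, so that count is not read as a result. Of the 9 probes, 5 had entered the test only through blood, being above background on all 4 arrays of a group in no milk source; these are CD3E, CTLA4, the dimmer CD8A probe and 2 of the CD4 probes. The filter favours lower values in milk for them, so the counts and medians here describe the tested probes and support no direction. These 5 probes gave 2 of the 5 lower calls, and the other 4 probes gave 3 lower and 1 higher. CD8A fell by 12.4-fold and CD5 by 2.34-fold, CD2 fell slightly, and the probes of CD4 went in opposite directions.

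In milk fat globules, 6 of the 9 probes differed from blood, again 5 lower and 1 higher, from 3 genes. The background was 63.9% of all probes, 38.4% lower and 25.5% higher. Of the 5 lower calls, 3 came from probes that had entered the test only through blood, and the other 4 probes gave 2 lower and 1 higher. Ranges were apart for 4 of the 9 probes, against 28.5% of all probes. The median log2 difference was -0.45 for the 9 probes and -0.13 for all probes. Under median centring the calls were 6 lower and 0 higher. The share of all probes under that setting is not given here, so that count is not read as a result. The median of all probes moved to -0.82 there, so that scaling sets much of the level in comparisons with MFG. Both comparisons use the same PNCB arrays.

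**Figure D2:**
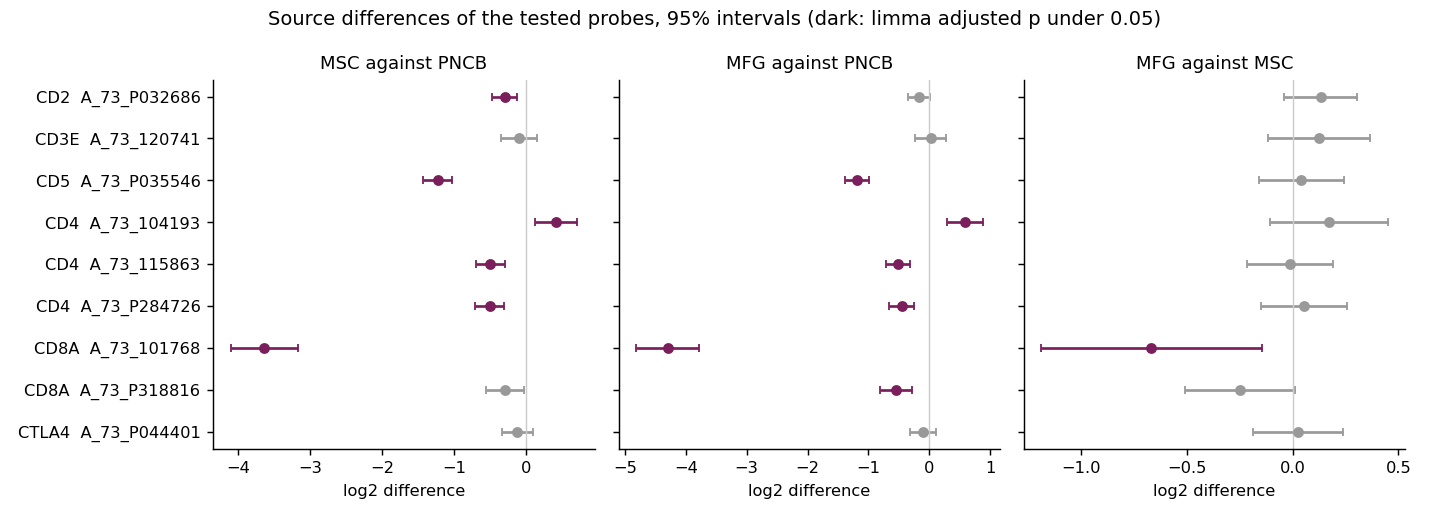
Log2 difference between sources for each of the 9 tested probes, with 95% intervals from limma; dark points had an adjusted p under 0.05, and the axes differ between panels. CD8A A_73_101768 lies at -3.64 and -4.30 against blood and CD5 near -1.2, and the 3 CD4 probes lie on both sides of 0.

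CD8A, the alpha chain of the CD8 coreceptor of cytotoxic T cells, showed the largest difference among the 9 probes in all 3 comparisons of sources. In blood, the log2 ratio of its brighter probe, A_73_101768, ran from -1.35 over a median of -0.63 to 0.09. In milk somatic cells it ran from -4.91 over -4.41 to -3.69, and in milk fat globules, with 6 arrays measured, from -5.26 over -4.94 to -4.56. Every milk array lay below every blood array. Mean ratios were -0.64 ± 0.59 (SD, n = 8) in PNCB, -4.28 ± 0.42 (n = 8) in MSC and -4.92 ± 0.24 (n = 6) in MFG.

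The difference between MSC and PNCB in CD8A was -3.64 on the log2 scale (SE 0.22, limma adjusted p = 2.87e-11). It was lower in 8 of 8 goats, by values from -4.97 to -2.35. Only 39 of 27381 probes, this one included, had a difference as low or lower. The difference was -3.51 within PWI and -3.76 within PFI goats, each from 4 arrays against 4. In a bulk sample, fewer CD8A-expressing cells and less CD8A RNA per cell cannot be told apart.

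The 2 channels showed where this difference lay. Background-subtracted Cy5 intensity of the CD8A probe was 2734.5 to 12676 in PNCB and 104.5 to 349.5 in MSC. Cy3 intensity, from the same reference RNA, was 1770.5 to 2364.5 on PNCB and 1865.5 to 2227 on MSC arrays. The difference thus stood in the sample channel, and the reference signal of this probe differed by only -0.05 between MSC and PNCB arrays (limma adjusted p = 0.61 on Cy3 alone, quantile normalised). In MSC the probe was still well above background on 8 of 8 arrays.

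Against blood, CD8A in MFG differed by -4.30 (SE 0.25, limma adjusted p = 5.01e-12) and was lower in 6 of 6 goats measured in both sources. Here 60 of 27381 probes had a difference as low or lower. No MFG array had the probe well above background, and net Cy5 intensity was 6.5 to 127, the 127 coming from PWI goat 2. Where a probe is below background in the dimmer source, its fold is given as a bound: the brighter group's mean Cy5 level against the dim group's, raised on each array to at least the lowest signal called above background. Both are log2 means after loess and Aquantile, which without a dye swap can carry dye bias. The bound compares these means and carries no interval. For CD8A this floor raised no MFG array, so the value is the measured Cy5 difference and not a bound. It was 25.9-fold lower in MFG than in PNCB, with log2 means of 6.51 (6 arrays) and 11.21. In the ratios the difference was 19.7-fold.

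The size of the difference in MFG varied with the processing. It was -6.66 with the scanner's processed signals, -6.72 in the authors' deposited log ratios and -3.57 when flagged spots were removed only after background correction. Without the MFG arrays of PWI goats 2 and 4 it was -4.28. The Cy3 signal of the probe was itself -0.51 on MFG against PNCB arrays (limma adjusted p = 7.98e-09), where 38.1% of all probes passed in Cy3.

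**Figure D3:**
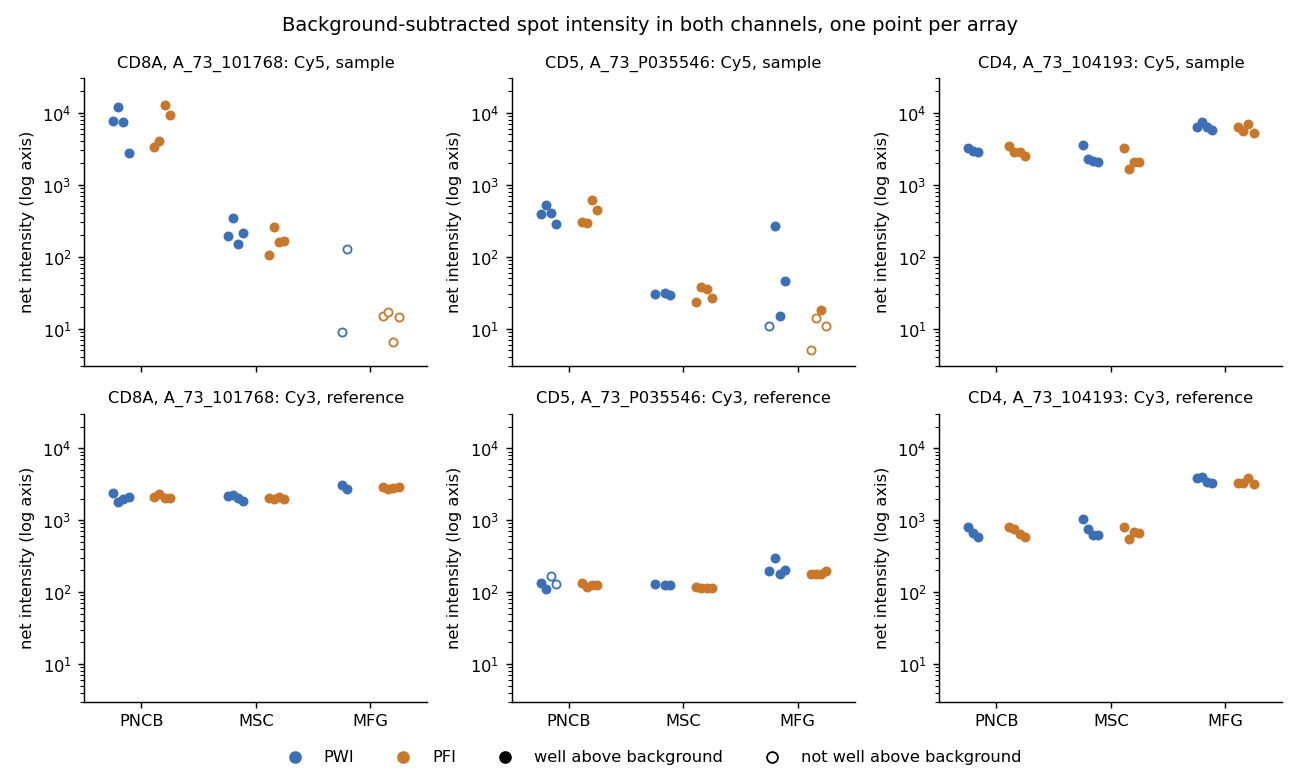
Background-subtracted intensity on a log axis, in scanner units, of the CD8A, CD5 and CD4 probes on every array, with the goat's sample (Cy5) in the top row and the blood reference (Cy3) in the bottom row; open points were not well above background. CD8A falls from 2734.5 to 12676 in blood to 104.5 to 349.5 in milk cells while its reference signal stays within 1770.5 to 2364.5 on both kinds of array, and the CD4 probe is brighter on MFG arrays in both channels.

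The second probe of CD8A, A_73_P318816, was above background on 8 PNCB arrays and on no milk array. Its net Cy5 intensity was 34.5 to 130.5 in blood, 7.0 to 15.5 in MSC and 0 to 54 in MFG. It did not pass between MSC and PNCB (log2 difference -0.29, limma adjusted p = 0.0638; at least 1.41-fold lower in Cy5). It passed between MFG and PNCB at -0.54 (limma adjusted p = 0.000721; at least 1.52-fold lower in Cy5). The 2 probes went in the same direction, with a much smaller difference on the dim probe. The dim probe had entered the test only through blood, and the filter favours lower values in milk for it. Its direction therefore adds no support to that of the brighter probe.

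CD5, a surface protein of T cells that restrains receptor signalling, had only 1 tested probe, A_73_P035546. In blood its log2 ratio ran from -0.14 over 0.12 to 0.38 (mean 0.11 ± 0.17, SD, n = 8). In MSC it ran from -1.27 over -1.10 to -0.93 (-1.12 ± 0.13, n = 7), and in MFG from -1.42 over -1.08 to -0.93 (-1.08 ± 0.15, n = 8). The blood arrays did not overlap with those of either milk source, and the milk sources overlapped with each other.

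CD5 was lower in MSC than in PNCB by -1.23 (SE 0.10, limma adjusted p = 8.04e-10), in 7 of 7 goats. It was lower in MFG by -1.19 (SE 0.09, limma adjusted p = 3.16e-10), in 8 of 8 goats. Net Cy5 intensity was 281 to 608.5 in blood and 23.5 to 37.5 in MSC. In MFG it was 5.0 to 46.5 except in PWI goat 2, at 266, and the probe was above background on 4 of 8 MFG arrays. With the scanner's processed signals, to which no offset is added, the differences were -2.80 in MSC and -3.13 in MFG; with offset 16 in place of 50 they were -1.73 and -1.71. The other CD5 probe, A_73_P446726, was above background on 4 PNCB, 0 MSC and 2 MFG arrays and was not tested.

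CD4, the coreceptor of helper T cells that monocytes and macrophages of some species also carry, gave 3 tested probes, and they disagreed. The brightest, A_73_104193, was above background on all 24 arrays. Its log2 ratio ran from -0.38 over -0.14 to 0.20 in PNCB (mean -0.10 ± 0.21, SD, n = 7) and from -0.20 over 0.21 to 0.91 in MSC (0.31 ± 0.34, n = 8). In MFG it ran from 0.25 over 0.45 to 0.76 (0.48 ± 0.21, n = 8). The ranges of MSC and PNCB overlapped, and those of MFG and PNCB did not.

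This CD4 probe was higher in MSC than in PNCB by 0.42 (SE 0.14, limma adjusted p = 0.017), in 7 of 7 goats, but the difference was -0.021 under median centring. It did not pass within PFI goats (0.29, limma adjusted p = 0.271), with flagged spots kept (0.20, adjusted p = 0.456) or in the authors' deposited log ratios (0.27, adjusted p = 0.352). It was higher in MFG than in PNCB by 0.59 (SE 0.14, limma adjusted p = 0.000929), in 7 of 7 goats, but lower by -0.77 under median centring, where the median of all probes was -0.82. It did not pass between MFG and PNCB within PFI goats (0.41, limma adjusted p = 0.0971), with flagged spots kept (0.40, adjusted p = 0.107) or in the deposited log ratios (0.40, adjusted p = 0.141).

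Both channels of this probe were brighter on MFG arrays. Net Cy3 intensity was 3197.5 to 3953.5 there, 584 to 816 on PNCB and 556 to 1026 on MSC arrays, although the reference RNA was the same. Net Cy5 intensity was 5168.5 to 7383.5 in MFG, 2498.5 to 3467 in PNCB and 1674 to 3555.5 in MSC. In Cy3 alone the MFG arrays were higher than PNCB arrays by 1.45 on the log2 scale (limma adjusted p = 2.61e-11), and the part of this in the ratio was not tested. In Cy5 alone the difference of MFG from PNCB was 2.70 (limma adjusted p = 3.02e-10).

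The other 2 tested CD4 probes were lower in both milk sources, a direction that the filter favours, since both had entered the test only through blood. A_73_115863 had a log2 ratio of 0.03 to 0.78 in PNCB, -0.26 to 0.01 in MSC and -0.36 to 0.04 in MFG. A_73_P284726 had a ratio of -0.05 to 0.85 in PNCB, -0.71 to 0.11 in MSC and -0.30 to -0.12 in MFG. Both were above background on 8 of 8 PNCB, 0 of 8 MSC and 2 of 8 MFG arrays, the latter being those of PWI goats 2 and 4.

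A_73_115863 differed by -0.50 between MSC and PNCB (limma adjusted p = 0.000213; at least 1.29-fold lower in Cy5) and by -0.51 between MFG and PNCB (limma adjusted p = 6.44e-05). A_73_P284726 differed by -0.51 (limma adjusted p = 0.000171; at least 1.35-fold lower) and -0.45 (limma adjusted p = 0.000368). Both were dim in blood, at 16 to 58 and 32.5 to 101 net units, and the reference channel was above background on no PNCB array for either. The files do not say which part of the CD4 transcript each probe covers, so no direction is given for CD4 as a gene. The fourth CD4 probe, A_73_P089926, was above background on 5 PNCB, 1 MSC and 2 MFG arrays and was not tested.

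CD3E, the epsilon chain through which the T cell receptor signals and the most T cell-restricted gene of the list, was dim in all 3 sources. Net Cy5 intensity of A_73_120741 was 20 to 90 in PNCB and 3.5 to 13 in MSC. In MFG it was 3.0 to 41 except in PWI goat 2, at 285. The probe was above background on 7 PNCB, 0 MSC and 3 MFG arrays, and in the reference channel on 0 PNCB, 0 MSC and 2 MFG arrays.

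Its log2 ratio lay near 0 in all sources, with means of 0.004 ± 0.32 (SD, n = 7) in PNCB, -0.10 ± 0.08 (n = 8) in MSC and 0.03 ± 0.16 (n = 8) in MFG. The difference between MSC and PNCB was -0.10 (95% interval -0.35 to 0.15, limma adjusted p = 0.504). The ratio here set a dim sample spot against a dim reference spot, and the outcome turned on how these were treated. The CD3E difference was -2.34 with the scanner's processed signals (limma adjusted p = 0.000209), -2.23 in the authors' deposited log ratios (adjusted p = 0.000268) and -0.39 in Cy5 alone (adjusted p = 0.0298). It also passed without PWI goat 3 (-0.24, limma adjusted p = 0.041), whose blood array had the lowest ratio at -0.61 and a spot below background.

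By the bound in Cy5, the mean of CD3E was at least 1.22-fold lower in MSC than in PNCB. The log2 Cy5 levels overlapped, at 5.99 to 6.21 in MSC and 6.05 to 6.75 in PNCB. This probe had entered the test only through blood, and the filter favours lower values in milk for it, so the bound supports no direction. Between MFG and PNCB it differed by 0.02 (95% interval -0.23 to 0.27, limma adjusted p = 0.873). That difference was -1.18 with the scanner's processed signals (limma adjusted p = 0.0264) and -1.12 in the authors' deposited log ratios (adjusted p = 0.0307). The other CD3E probe, A_73_P072481, was above background on 0 PNCB, 0 MSC and 2 MFG arrays, again those of PWI goats 2 and 4, and was not tested.

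CD2, the adhesion receptor of T and natural killer cells, was above background in Cy5 on all 24 arrays with its only probe, A_73_P032686. Its log2 ratio ran from 0.002 over 0.09 to 0.64 in PNCB (mean 0.21 ± 0.24, SD, n = 7), from -0.21 over -0.05 to 0.09 in MSC (-0.06 ± 0.10, n = 8) and from -0.16 over 0.11 to 0.32 in MFG (0.09 ± 0.15, n = 7). The ranges of all 3 sources overlapped. Net Cy5 intensity was 40 to 67 in PNCB and 20 to 31 in MSC. In the reference channel the probe was above background on 1 PNCB, 1 MSC and 8 MFG arrays.

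CD2 was lower in MSC than in PNCB by -0.30 (SE 0.08, limma adjusted p = 0.00509), in 5 of 7 goats. The difference was -0.55 within PWI goats (limma adjusted p = 0.0252) and -0.05 within PFI goats (adjusted p = 0.705). It did not pass in Cy5 alone (-0.11, limma adjusted p = 0.232) or with flagged spots kept (-0.20, adjusted p = 0.0957), and it was -0.78 with the scanner's processed signals (adjusted p = 0.00461). The reference channel alone differed by 0.17 between MSC and PNCB arrays (limma unadjusted p = 0.00346, adjusted p = 0.104). The part of this in the ratio was not tested. Between MFG and PNCB the CD2 difference was -0.17 (limma adjusted p = 0.0971), and in Cy5 alone it was 0.24 (adjusted p = 0.0117).

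CTLA4, the inhibitory receptor of the costimulatory pair, had 1 tested probe, A_73_P044401, with net Cy5 intensity of 8.5 to 39 in PNCB, 9.0 to 21.5 in MSC and 12 to 116.5 in MFG. It was above background on 7, 3 and 3 arrays. Its differences were -0.12 in MSC (95% interval -0.34 to 0.09, limma adjusted p = 0.326) and -0.10 in MFG against blood (95% interval -0.31 to 0.11, adjusted p = 0.414). The other CTLA4 probe, A_73_104324, was above background on 4 PNCB, 1 MSC and 2 MFG arrays. CD28, the costimulatory receptor, was measured by A_73_P042766 alone, above background on 5 PNCB, 0 MSC and 2 MFG arrays, with net intensity of 10.5 to 33.5, 1.5 to 15.5 and 13 to 211. CD28 was therefore not tested.

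**Figure D4:**
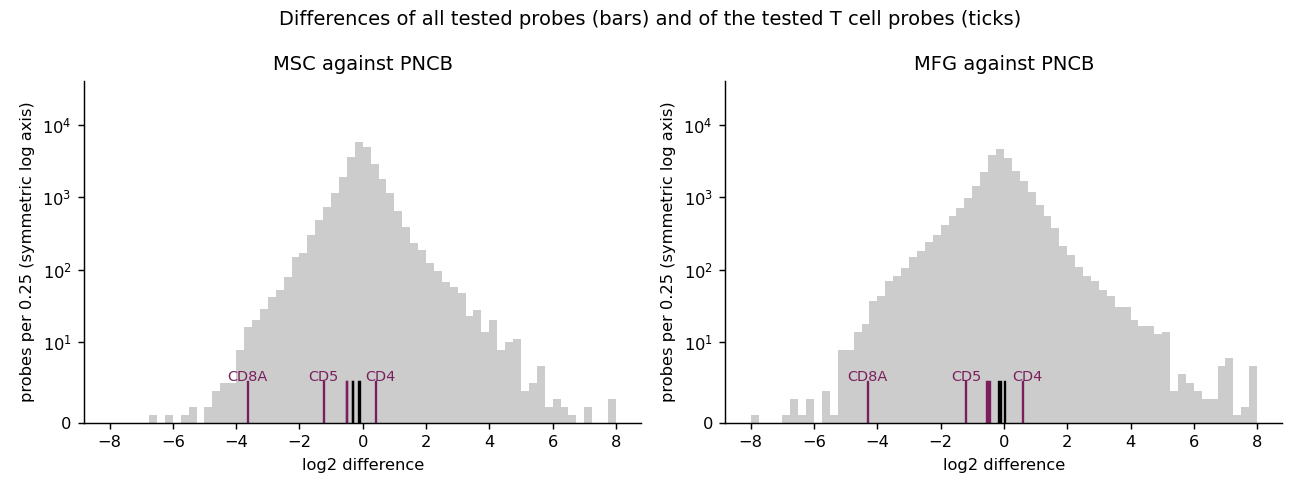
Number of probes per 0.25 of log2 difference, on a symmetric log axis, over all 27381 probes (grey bars, values beyond 8 drawn at the ends) with the 9 T cell probes as ticks, purple where limma's adjusted p was under 0.05 and black elsewhere. CD8A lies in the far lower tail of both comparisons, CD5 lies on the lower flank, and the other 7 probes lie within 0.6 of 0.

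Between the milk sources, only the brighter CD8A probe of the 9 passed, at -0.67 in MFG against MSC (SE 0.25, limma adjusted p = 0.0435), where 34.8% of all probes passed, 22.2% lower and 12.6% higher. It was lower in 6 of 6 goats, by -1.28 to -0.14, and the ranges overlapped. Ranges were apart for 0 of the 9 probes, against 11.9% of all probes. In Cy5 it was 1.94-fold lower, with log2 means of 6.51 in MFG and 7.47 in MSC. That is the measured difference and not a bound, and in the ratios it was 1.59-fold. The call was lost in 12 of 24 alternatives, among them leaving out PWI goat 1 (-0.75), PWI goat 2 (-0.58), PWI goat 4 (-0.59), PFI goat 2 (-0.61) or PFI goat 4 (-0.65), with limma adjusted p from 0.0624 to 0.125. With flagged spots left out only after background correction it was -0.07 (limma adjusted p = 0.924), and over the alternatives it ranged from -2.40 in the authors' deposited log ratios (adjusted p = 3.08e-07) to -0.04 with flagged spots kept (adjusted p = 0.977). The reference channel alone differed by -0.46 for this probe (limma adjusted p = 4.1e-08).

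CD5 differed by 0.04 between MFG and MSC (95% interval -0.16 to 0.24, limma adjusted p = 0.785), but by -0.53 under median centring and -0.32 in Cy5 alone. The bright CD4 probe differed by 0.17 (95% interval -0.11 to 0.45, limma adjusted p = 0.355), but by -0.75 under median centring and 2.12 in Cy5 alone. The order of ratios in CD8A was PNCB, MSC, MFG, from high to low. For CD5 blood was highest and the difference between the milk sources did not pass in the main fit. For the bright CD4 probe the difference between MFG and MSC did not pass in the main fit. The means of both lay above that of PNCB, except under median centring, and the ranges of MSC and PNCB overlapped. For CD3E and CTLA4 no difference between sources passed in the main fit. For CD2 only that between PNCB and MSC passed, with overlapping ranges.

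The members also changed unequally between sources. The measure is the difference between the ratios of a pair of members to the shared reference on the same array. Each such difference needs no other array, but its comparison between sources runs across slides, and across kits for blood against milk. On blood arrays the log2 ratio of CD8A minus that of CD4, from the bright probe of each, was -0.45 ± 0.76 (SD, n = 7). It was -4.58 ± 0.43 (n = 8) on MSC arrays. Its highest value in MSC, -3.96, lay below its lowest in blood, -1.53. CD8A minus CD5 was -0.75 ± 0.64 (n = 8) in PNCB and -3.24 ± 0.33 (n = 7) in MSC. No such value is given for CD8A in MFG, where its probe was not above background. CD5 minus CD4 was 0.17 ± 0.26 (n = 7), -1.44 ± 0.30 (n = 7) and -1.55 ± 0.17 (n = 8) in PNCB, MSC and MFG, the last with CD5 above background on 4 of 8 arrays. In MSC the ratio of CD8A to the blood reference was thus lower than that of CD5, and that of CD5 lower than that of the bright CD4 probe, which was above 0. The offset limits how far a dim probe can fall, and in MSC CD5 was dimmer than CD8A in both channels. Without an offset, with the scanner's processed signals, CD5 in MSC against PNCB was -2.80 in place of -1.23. How much of the unequal change the offset sets was not tested.

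The series' title asks about the breeds, so PWI and PFI goats were also compared, 4 against 4 in every source. None of the 9 probes passed in MSC, PNCB or MFG, over the 3 sources or in the interaction of breed and source (limma). Of all probes 0%, 0.0109%, 0.0146%, 0.00366% and 0.0146% passed in these 5 tests. At an unadjusted p under 0.05 there were 1, 1, 0, 1 and 1 of the 9 probes, against 4.38%, 3.56%, 8.58%, 6.23% and 6.13% of all probes. Each group lay on its own slide, so breed and slide cannot be told apart.

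CD2 in blood had the lowest unadjusted p of the breed tests within a source. Its log2 ratio was 0.34, 0.64 and 0.34 in PWI goats 2, 3 and 4, and 0.09, 0.06, 0.002 and 0.006 in PFI goats 1 to 4. All PWI values lay above all PFI values, by a difference of 0.40 (95% interval 0.05 to 0.75, unadjusted p = 0.0295, limma adjusted p = 0.972). Net Cy5 intensity did not separate the breeds, at 40 to 67 in PWI and 43 to 64 in PFI goats, and the difference was -0.02 in Cy5 alone. The blood arrays of PWI goats 3 and 4 were among the 3 arrays of lowest spike-in slope, and without those 3 arrays the difference was 0.30. The interaction of breed and source for CD2 had an unadjusted p of 0.00493 (limma F-test, adjusted p = 0.769).

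The CD4 probe A_73_P284726 had the lowest p in milk somatic cells. Its log2 ratio was -0.13, -0.18, -0.10 and 0.11 in PWI goats 1 to 4 and -0.71, -0.56, -0.31 and -0.12 in PFI goats 1 to 4, with overlap. The difference was 0.35 (95% interval 0.03 to 0.67, unadjusted p = 0.036, limma adjusted p = 0.988), on a probe above background on no MSC array. Its mean net Cy5 intensity was 7.4 in PWI and 7.5 in PFI goats. In the reference channel alone PWI minus PFI was -0.37 (limma unadjusted p = 0.00169, adjusted p = 0.157). For CD8A the breeds differed by 0.03 in PNCB (95% interval -0.79 to 0.85), 0.29 in MSC (-0.30 to 0.88) and -0.13 in MFG (-0.62 to 0.37), the last from 2 PWI and 4 PFI arrays. Those intervals leave room for breed differences in CD8A of up to 0.88 on the log2 scale. For CD5 they were narrower, from -0.39 to 0.32 in PNCB, -0.33 to 0.21 in MSC and -0.38 to 0.17 in MFG.

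**Figure D5:**
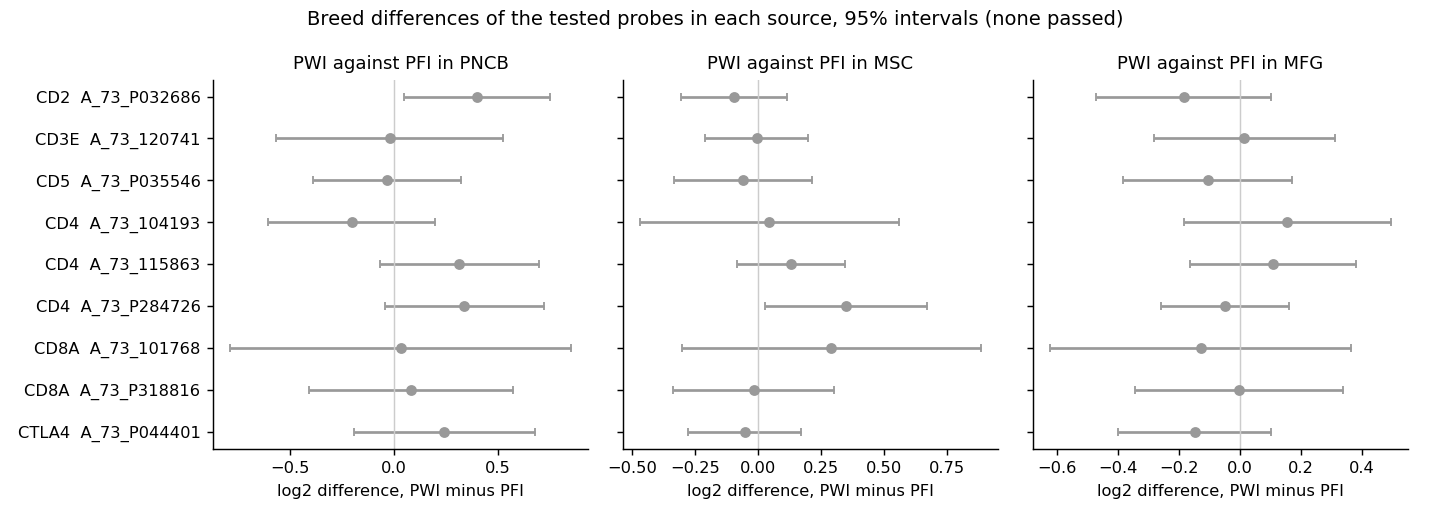
Log2 difference of PWI minus PFI goats for each of the 9 tested probes within each source, with 95% intervals from limma; none had an adjusted p under 0.05 and the axes differ between panels. The widest interval is that of CD8A in blood, -0.79 to 0.85, and the interval of CD2 in blood, 0.05 to 0.75, leaves out 0.

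The probes most like CD3E over the arrays, by the root mean square difference of log2 ratio from A_73_120741, were A_73_P444686 (ENSBTAT00000009791) at 0.14 over 22 arrays, and A_73_P377576 (NM_001037602) and A_73_P056381 (NM_001192571) at 0.15 over 23 arrays each. Among 27410 probes ranked this way, CD2 stood at 3140, the CTLA4 probe at 6097, the 3 CD4 probes at 5472 to 10492, the CD8A probes at 8993 and 27303 and CD5 at 20938. The measure takes ratios near 0 as alike whatever the signal behind them, and CD3E itself was dim.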

How the data were processed

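Each file holds 1 array; per the file headers, Agilent Feature Extraction 10.7.3.1 gave the authors' median spot and background intensity per channel, processed signals and log10 ratios. The authors' deposited table holds the same log10 ratios, Cy5 over Cy3 (largest difference 0). Spots with an outlier flag were left out, background was corrected with normexp (offset 50), ratios were normalised by loess within each array, and spots of a probe were averaged (R 4.3.3, limma 3.58.1). The deposited intensity is in scanner units, and the number of arrays limits precision. Differences are in log2 of Cy5 over Cy3; the offset draws those of dim probes towards 0. The tools behind any later step of the authors are not given in the sources used here. Tested probes were those that the scanner software called well above background in Cy5 throughout 1 or more of the 6 groups (4 arrays each). Sources were compared by limma (lmFit, eBayes) on 24 arrays with 6 group means, each contrast averaging the breeds, over 27381 probes with a value in every group; breeds on 8 arrays or 8 goat means. Benjamini-Hochberg adjustment was over all tested probes, with a threshold of 0.05. The fit was tested on simulated data. A gene is represented by its tested probe of highest mean Cy5 signal, and its other probes are given where they disagree. The members and lists were chosen with earlier results of these data known.

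Per the titles and design text, a goat's number is shared by its 3 arrays. Deviations from group means correlated at 0.04 on average between arrays of the same goat (24 pairs, 9 over 0.1) and -0.01 between goats.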

Additional observations from a re-analysis of the deposited data

How the results depend on the processing

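Depth is limited by signal over background: 7 of the 14 probes were above background on no MSC array. CD8A and CD5 kept their direction and passed against PNCB in both milk sources in 24 of 24 alternatives other than a change of probe. They ranged over -4.40 to -3.43 and -2.80 to -0.93 in MSC, and over -6.72 to -3.57 and -3.13 to -0.86 in MFG. CTLA4 passed in none. Unless a setting below is said to show it, the cause of a change was not tested.

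Of the 9 member probes, 6 passed in MSC against PNCB, 6 passed in MFG against PNCB, and 1 in MFG against MSC. With goat as a replicate block, random or fixed, these counts were 6, 6 and 1 again, and no call of a gene's main probe changed. Restricting to probes above background on all 24 arrays left 2 member probes to test, of which 2, 1 and 0 passed. The shares of all probes that passed under the alternatives are not given here, so these counts describe the member probes alone. For MFG against MSC the count was 2 with the scanner's processed signals, 3 with median centring, 4 in Cy5 alone and 2 with array weights. It was 0 with flagged spots left out after the background fit or kept, with all probes tested, without the 3 arrays of lowest spike-in slope, within PWI goats, within PFI goats, and without the MFG arrays of PWI goats 2 and 4 (chosen after seeing the data). Leaving out each goat in turn gave 0 to 1. In the breed comparisons and the interaction no member probe passed in any alternative.

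The values below changed sign where the main value or the alternative passed the threshold; in 26 of the 432 gene values under alternatives in the source comparisons the sign changed and neither passed, and these are not listed. For CD4 in MSC against PNCB, median centring gave -0.021, A_73_115863 gave -0.50, A_73_P284726 gave -0.51 and the mean of the 3 probes gave -0.22. For CD4 in MFG against PNCB these were -0.77, -0.51, -0.45 and -0.14. CD4 in MFG against MSC was -0.75 with median centring. CD5 in MFG against MSC was -0.53 with median centring and -0.32 in Cy5 alone. CD2 in MFG against PNCB was 0.24 in Cy5 alone. CD3E in MFG against PNCB was -1.18 with the scanner's processed signals and -1.12 in the deposited log ratios. The median of all probes in MFG against MSC was -0.02, and -0.61 with median centring. Normexp on mean spot signal was not run, since no mean signal was used here.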
